A study of Mus musculus with 9 samples.

Results

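Meis1, Meis2, Pknox1, Pbx2 and Pbx3 belong to the TALE class of homeobox genes, which encode transcription factors whose homeodomain carries an extended loop. Members were taken as every probe set annotated to 1 of these symbols alone. This gave 15 probe sets for 5 genes, among 37818 probe sets that name a single gene and 20680 genes in all. The genes were chosen by name, but with the measured intensities of the Ezh2-null and WT arrays already known, so their differences between the genotypes are a description and support nothing. The series profiled RNA from 5 Ezh2-null and 4 wild-type (WT) mouse leukaemias on microarrays, 1 array per sample. All 9 samples were acute myeloid leukaemias on the C57B/6 strain, induced by a retrovirus carrying MLL-AF9, which joins part of the methyltransferase MLL to AF9. In both genotypes the primary recipients had received pIpC to switch on Cre, and marrow of irradiated secondary recipients was sorted for GFP, the mark of the virus, together with YFP, the mark of Cre activity. The gene deleted in Ezh2-null cells, Ezh2, encodes a methyltransferase that acts in Polycomb repressive complex 2. The labels call the samples biological replicates. The sources used here do not give the Cre line, the ages of the mice or the primary leukaemia behind each recipient. Some arrays may therefore share an origin, and p-values may then measure spread between recipients and not between primary leukaemias.

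As background, the family has a MEIS and PREP branch, with PREP proteins encoded by the Pknox genes, and a PBX branch. MEIS and PREP proteins bind PBX proteins and hold them in the nucleus, and these dimers join HOX proteins on DNA and sharpen their choice of sites. MLL fusions drive high transcription of Hoxa genes and Meis1, and Meis1 speeds leukaemia when it is expressed with Hoxa9 in mouse marrow. Polycomb repressive complex 2 silences many homeobox genes, and its sites, like those of MLL, tend to lie at promoters rich in CG dinucleotides.

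The RefSeq promoter table (GRCm38.p6) matched 3 of the 5 members by symbol, Meis1, Meis2 and Pbx2. Pbx3 and Pknox1 had no entry. The 250 bases before each transcript start are shown because CG content is the feature tied to MLL and Polycomb binding, and CG dinucleotides stand in capitals. The windows lie at chr11:19018970-19019219 on the minus strand for Meis1, at chr2:116064620-116064869 on the minus strand for Meis2 and at chr17:34592009-34592258 on the plus strand for Pbx2.
Meis1: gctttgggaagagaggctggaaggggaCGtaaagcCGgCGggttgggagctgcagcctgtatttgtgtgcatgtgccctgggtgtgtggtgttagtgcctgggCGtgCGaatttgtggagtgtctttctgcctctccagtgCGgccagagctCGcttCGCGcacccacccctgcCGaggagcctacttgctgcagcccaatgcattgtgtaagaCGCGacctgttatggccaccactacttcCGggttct
Meis2: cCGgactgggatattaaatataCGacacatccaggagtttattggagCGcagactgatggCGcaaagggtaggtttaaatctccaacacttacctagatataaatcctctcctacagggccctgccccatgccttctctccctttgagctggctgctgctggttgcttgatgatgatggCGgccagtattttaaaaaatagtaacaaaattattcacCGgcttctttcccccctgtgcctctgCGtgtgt
Pbx2: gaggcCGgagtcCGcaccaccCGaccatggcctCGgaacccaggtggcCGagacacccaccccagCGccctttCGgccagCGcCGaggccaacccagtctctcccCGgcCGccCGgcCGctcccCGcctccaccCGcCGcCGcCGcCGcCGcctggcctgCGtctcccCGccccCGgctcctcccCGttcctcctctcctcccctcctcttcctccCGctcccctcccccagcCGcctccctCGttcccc

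The Pbx2 window held 27 CG dinucleotides, more than 91.4% of the 32851 promoter windows of this length in the table. The Meis1 window held 13, more than 68.5% of windows, and the Meis2 window held 7, more than 53.7%, against a median of 6. CG density therefore ran in the order Pbx2, Meis1, Meis2. Both strands were searched for 3 motifs, and the 3 windows held 0 matches to each. The core bound by MEIS and PREP proteins, TGACAG, was present in 15.9% of all windows. A joint site of PBX and HOX proteins, TGATTNAT, was present in 2.82%. The core of the CREB site, TGACG, was present in 17.8%, and it begins with the same letters as the MEIS core but cannot match at the same place on 1 strand. No match says only that these letters are not in these windows.

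The deleted gene was checked before the members. Ezh2 averaged 9.21 ± 0.18 on the log2 scale in Ezh2-null arrays (SD, n = 5) and 10.50 ± 0.49 in WT arrays (SD, n = 4), a difference of -1.30 (SE 0.21, adjusted p = 0.0373 in limma). That is 2.46-fold, so Ezh2 signal remained in the Ezh2-null arrays, and its source was not tested. The arrays differed more within WT than within Ezh2-null leukaemia. The first principal component held 36.7% of the variance, with scores of -29.5 to -9.83 for Ezh2-null arrays, against -0.67 and -2.33 for WT replicates 1 and 2 and 58.9 and 51.8 for WT replicates 3 and 4. Summed intensity of 8 of 8 myeloid markers was 26387 to 35733 in Ezh2-null arrays and 25966 to 34102 in WT arrays. Of 5 T cell markers 4 were below the 40th percentile of all genes, as were 4 of 7 markers of stroma and endothelium. So were 2 of 4 measured B cell markers, 2 of 5 erythroid markers and 3 of 5 megakaryocyte markers. The B cell markers summed to 631 to 725 in Ezh2-null arrays and 467 to 672 in WT arrays. The 6 mature neutrophil markers summed to 50776 to 90168 in Ezh2-null arrays, against 70053 and 71072 in the first pair of WT arrays and 17986 and 29586 in WT replicates 3 and 4. Sums of 5 erythroid markers, of which 1 passed, were 1374 to 2033 in Ezh2-null arrays and 2499 to 4308 in WT arrays. Sums of 5 megakaryocyte markers, of which 0 passed in limma, were 806 to 996 in Ezh2-null arrays and 587 to 668 in WT arrays. The log2 ratio of 3′ to 5′ Gapdh probes, a sign of RNA quality, was 1.56 to 1.65 in Ezh2-null arrays and 1.47 to 1.80 in WT arrays. For Actb probes the same ratio was -0.090 to -0.035 in Ezh2-null arrays and -0.097 to 0.016 in WT arrays. The part of these cells, and of RNA quality, in the differences below was not tested.

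Meis1, the partner of Hoxa9 in MLL leukaemia, was bright on all 9 arrays and its groups overlapped on each of its 3 probe sets. Values here are intensities on a linear scale, and differences are Ezh2-null minus WT means of log2 intensity. The brightest probe set, 1459423_at, read 2787, 2496, 2414, 2743 and 2033 on Ezh2-null replicates 1 to 5, against 2110.5, 1984, 1811 and 2454 on WT replicates 1 to 4. Ezh2-null replicates 1 to 4 stood above WT replicates 1, 2 and 3, while Ezh2-null replicate 5 fell among the WT arrays and WT replicate 4 among the Ezh2-null arrays. On the log2 scale the means were 11.28 ± 0.18 in Ezh2-null arrays (SD, n = 5) and 11.02 ± 0.18 in WT arrays (SD, n = 4), a difference of 0.26 (SE 0.13). In bulk samples such as these, fewer cells that make a transcript and less of it per cell cannot be told apart.

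The other Meis1 probe sets gave log2 differences of like size, which moved with single WT arrays. Probe set 1443260_at read 388 to 599 on Ezh2-null arrays and 310 to 571 on WT arrays, a log2 difference of 0.26 (SE 0.20). Probe set 1450992_a_at read 391 to 550 on Ezh2-null arrays, against 239 on WT replicate 1 and 387, 475 and 477 on WT replicates 2, 3 and 4. Its log2 difference was 0.34 (SE 0.21) and 0.11 without WT replicate 1, while leaving out WT replicates 3 and 4 together gave 0.66. For 1443260_at, leaving out 1 WT array gave 0.12 for replicate 2, 0.17 for replicate 3 and 0.41 for replicate 4. The 3 probe sets did not track each other closely from array to array, with Pearson r of 0.21 to 0.34 over the 9 arrays, as a description.

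Meis2, a close relative of Meis1 that is best known from limb and brain development, was dim. Its 4 probe sets all had mean log2 values below the 40th percentile of all probe sets, and they are the members' only ones that did. The brightest, 1447861_x_at, read 61.0, 62.0, 48.4, 66.3 and 58.9 on Ezh2-null replicates 1 to 5, against 86.1, 91.6, 50.8 and 47.2 on WT replicates 1 to 4. WT replicates 1 and 2 were above every Ezh2-null array, and WT replicate 4 was below all of them. The log2 difference was -0.16 (SE 0.21) with all arrays and -0.59 without WT replicates 3 and 4. Leaving out 1 WT array gave -0.32 for replicate 4, -0.29 for replicate 3, -0.03 for replicate 1 and -0.002 for replicate 2. The remaining probe sets had log2 differences of 0.17, 0.13 and 0.00 and read at most 87.3 on Ezh2-null arrays and 58.4 on WT arrays. When WT replicates 3 and 4 were left out together these became -0.05, -0.12 and -0.08. Of single arrays, leaving out Ezh2-null replicate 1 gave -0.04 for 1417129_a_at and leaving out WT replicate 3 gave -0.01 for 1440091_at. For 1457632_s_at, single arrays left out gave -0.06 to 0.06. The highest of these values, on Ezh2-null replicate 1 for 1417129_a_at, stood apart from the 39.4 to 46.2 of the other Ezh2-null arrays.

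Pknox1 encodes PREP1, which binds PBX proteins in competition with MEIS proteins, and its 3 probe sets had log2 differences of 0.20, 0.32 and -0.02. The brightest, 1450172_at, read 1563, 2021, 1555, 2057 and 1211 on Ezh2-null replicates 1 to 5, against 846, 1823, 1531 and 1784 on WT replicates 1 to 4. Apart from the low WT replicate 1, WT arrays lay within the range of Ezh2-null arrays. The log2 difference was 0.20 (SE 0.25) with all arrays, -0.05 without WT replicate 1 and 0.32 without WT replicate 2. Without Ezh2-null replicate 5 it was 0.32.

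On the 2 dimmer Pknox1 probe sets it was WT replicate 2, not WT replicate 1, that was lowest. Probe set 1421233_at read 650 to 1077 on Ezh2-null arrays, against 500.0 on WT replicate 2 and 770, 798 and 797 on WT replicates 1, 3 and 4. Its log2 difference was 0.32 (SE 0.20) with all arrays and 0.16 without WT replicate 2. Probe set 1437470_at read 266 to 309 on Ezh2-null arrays and 204 to 356 on WT arrays, a log2 difference of -0.02 (SE 0.16). It was -0.18 without WT replicate 2 and 0.09 without WT replicate 1. The brightest probe set ran against 1437470_at over the 9 arrays (Pearson r -0.46), while the 2 dimmer ones ran together (0.61).

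Pbx2, a widely expressed PBX protein, had the highest log2 difference of the 5 brightest probe sets with all arrays, just above Pbx3. Pbx3 was above it in the batch-adjusted table, at 0.51 against 0.45, and without WT replicate 1, at 0.68 against 0.48. Pbx3 was also above Pbx2 with array weights, by which arrays count unequally, at 0.675 against 0.614. Without WT replicates 3 and 4 Pbx2 was below Pknox1, at 0.34 against 0.41. Probe set 1418894_s_at read 2634, 2794, 2469, 2596 and 2361 on Ezh2-null replicates 1 to 5, against 1584, 2600.2, 1664 and 1439 on WT replicates 1 to 4. WT replicate 2 sat inside the Ezh2-null range and WT replicates 1, 3 and 4 sat below it. The means were 11.33 ± 0.09 in Ezh2-null arrays (SD, n = 5) and 10.79 ± 0.38 in WT arrays (SD, n = 4), a log2 difference of 0.53 (SE 0.17), or 1.45-fold. Probe set 1449261_at had the same arrangement, with 1048, 938, 1120.1, 961 and 845 on Ezh2-null replicates 1 to 5 and 604, 956, 608 and 624 on WT replicates 1 to 4. Its log2 difference was 0.52 (SE 0.16), and its Pearson r with 1418894_s_at was 0.93 over the 9 arrays.

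The split of Pbx2 among WT arrays did not follow the one that sets WT replicates 3 and 4 apart on the first principal component. Without WT replicates 3 and 4 the log2 differences of 1418894_s_at and 1449261_at were 0.34 and 0.36. Without WT replicate 2 they were 0.72 and 0.68, and both probe sets then passed at an adjusted p under 0.05 over all probe sets, where 0.994% of probe sets passed. In the fit over genes with array weights Pbx2 passed as well at a log2 difference of 0.61, where 4.87% of genes passed. The weights did not act like leaving out WT replicates 3 and 4, as Meis2 was at 0.04 with weights and at -0.59 without those arrays. Since Pbx2 was chosen with this contrast known, nothing is read from these calls. The third Pbx2 probe set, 1418893_at, read 1143, 747, 986, 599.9 and 527 on Ezh2-null replicates 1 to 5, against 578, 548, 546 and 581 on WT replicates 1 to 4. Here the WT arrays lay close together, and Ezh2-null replicates 1, 2 and 3 stood above replicates 4 and 5. Its log2 difference was 0.45 (SE 0.22), and its Pearson r with 1418894_s_at was 0.45.

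Pbx3, described in human MLL-rearranged leukaemia as a partner of HOXA9 and MEIS1, included the probe set with the largest WT SD of the 15, at 0.83 on the log2 scale for 1447640_s_at. Probe set 1421193_a_at read 924, 993, 979, 828 and 713 on Ezh2-null replicates 1 to 5, against 938, 677, 429 and 575 on WT replicates 1 to 4. WT replicate 1 lay inside the Ezh2-null range and the other WT arrays below it. The means were 9.78 ± 0.20 in Ezh2-null arrays (SD, n = 5) and 9.30 ± 0.47 in WT arrays (SD, n = 4), a log2 difference of 0.49 (SE 0.21). Leaving out WT replicate 3 gave 0.30, and leaving out WT replicates 3 and 4 together gave 0.14.

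The dimmer Pbx3 probe set changed sign with the arrays used. Probe set 1447640_s_at read 552, 465, 412, 466 and 524 on Ezh2-null replicates 1 to 5, against 754, 474, 380 and 188 on WT replicates 1 to 4, so that Ezh2-null arrays lay inside the WT range. Its log2 difference was 0.27 (SE 0.32) with all arrays, 0.57 without WT replicate 1 and -0.09 without WT replicate 4. Leaving out WT replicates 3 and 4 together gave -0.31. WT replicates 3 and 4, lowest on both Pbx3 probe sets, were also the arrays with the lowest sums of mature neutrophil markers. The part of those cells in the Pbx3 values was not tested.

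**Figure D1:**
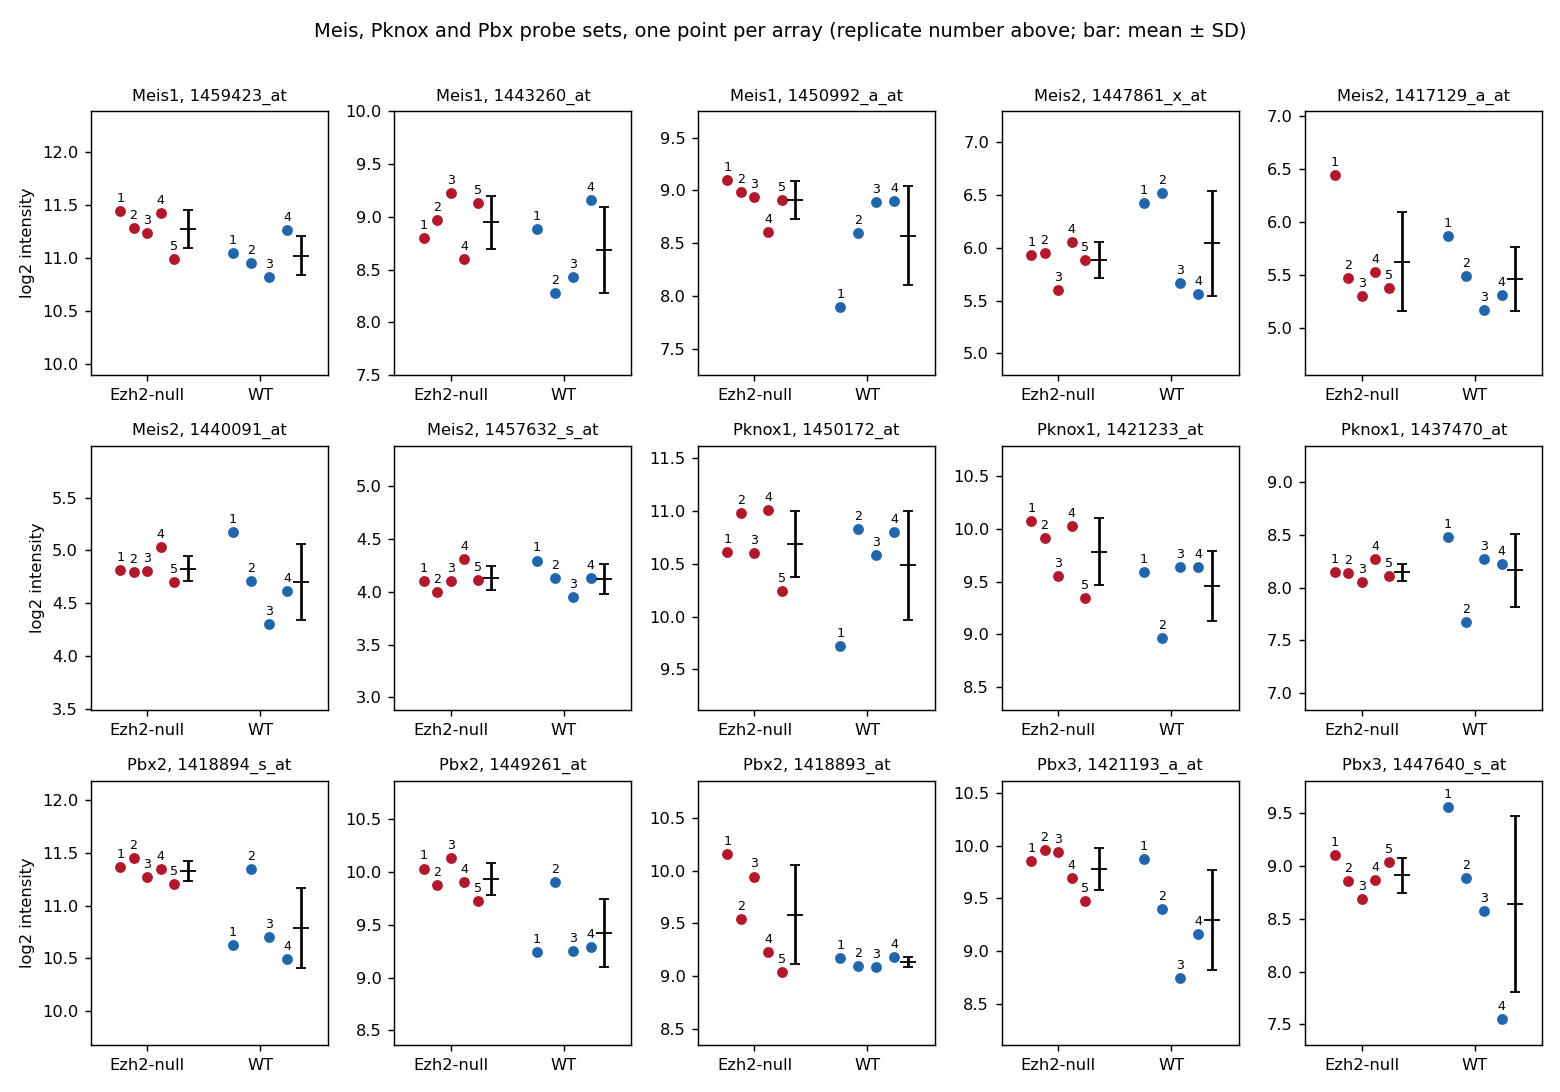
Log2 intensity of the 15 probe sets of Meis1, Meis2, Pknox1, Pbx2 and Pbx3, 1 point per array with its replicate number above it, Ezh2-null (red) left of WT (blue), and a bar for the mean ± SD of each genotype. Every panel spans the same log2 range, and in none of them are the genotypes apart on all arrays.

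Over the members as a whole, 13 of 15 probe sets had a higher mean in Ezh2-null arrays and 2 a lower one, with a median log2 difference of 0.26, against a median of 0.01 over all 37818 probe sets, of which 51.0% had a higher mean. In limma 0 of 15 passed at an adjusted p under 0.05, where 0.428% of all probe sets did. At an unadjusted p under 0.05 there were 3 of 15, the brightest of Pbx3 and a pair of Pbx2, where 16.3% of all probe sets did. On 0 of 15 were the genotypes free of overlap, a state reached by 5.5% of all probe sets. Since the genes were chosen with this contrast known, nothing is read from these counts. The SD was larger in WT than in Ezh2-null arrays for 13 of 15 probe sets and for 62.0% of all probe sets.

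**Figure D2:**
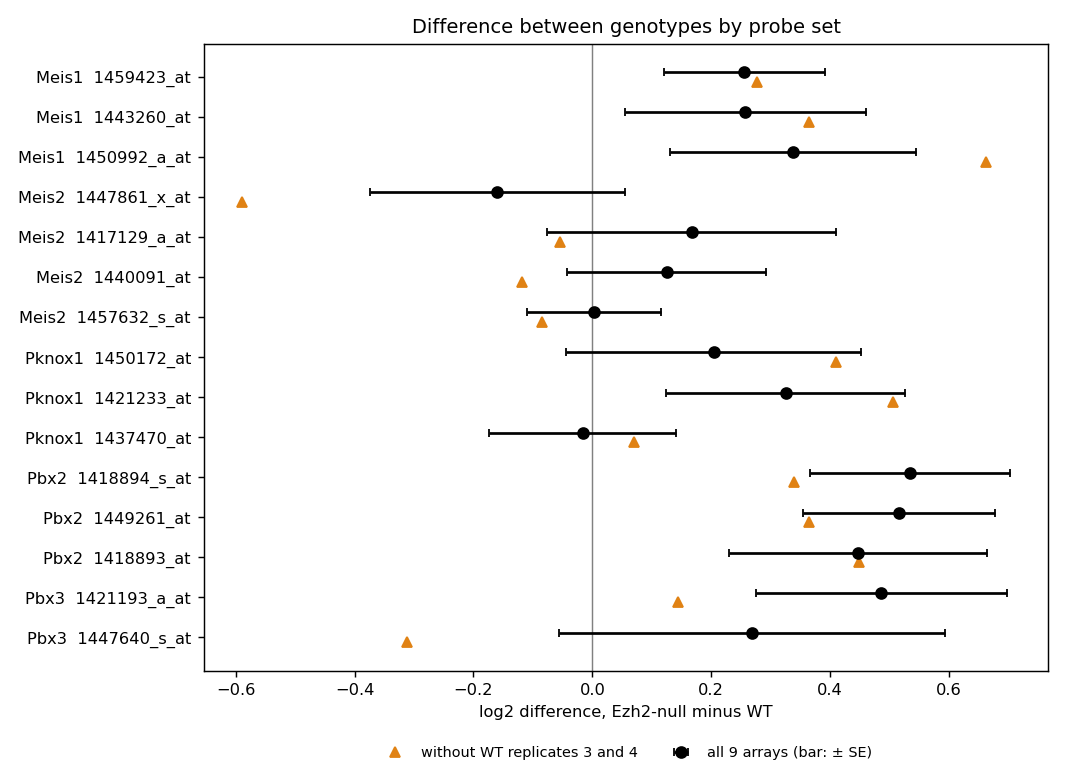
Log2 difference, Ezh2-null minus WT, of each member probe set with all 9 arrays (black, bar ± SE) and without WT replicates 3 and 4 (orange). The 3 Pbx2 probe sets stay between 0.34 and 0.53, while Meis2 1447861_x_at moves to -0.59 and Pbx3 1447640_s_at to -0.31.

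The 5 genes did not move as a block from array to array. Between the brightest probe sets, Pearson r over the 9 arrays ran from -0.27 for Meis2 with Pknox1 to 0.62 for Meis1 with Pbx3. Taken as deviations from the mean of each genotype, r was 0.38 for Meis1 with Pbx3 and -0.15 for Meis1 with Pbx2. The dim brightest probe set of Meis2 had r of 0.65 with Pbx2 and 0.59 with Pbx3 within genotypes, against 0.22 and 0.29 over the 9 arrays. Within genotypes its other probe sets had r of 0.11, 0.02 and -0.10 with the same Pbx2 probe set. With the same Pbx3 probe set they had 0.50, 0.85 and 0.51. All of these share the same 9 hybridisations and are given as a description.

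**Figure D3:**
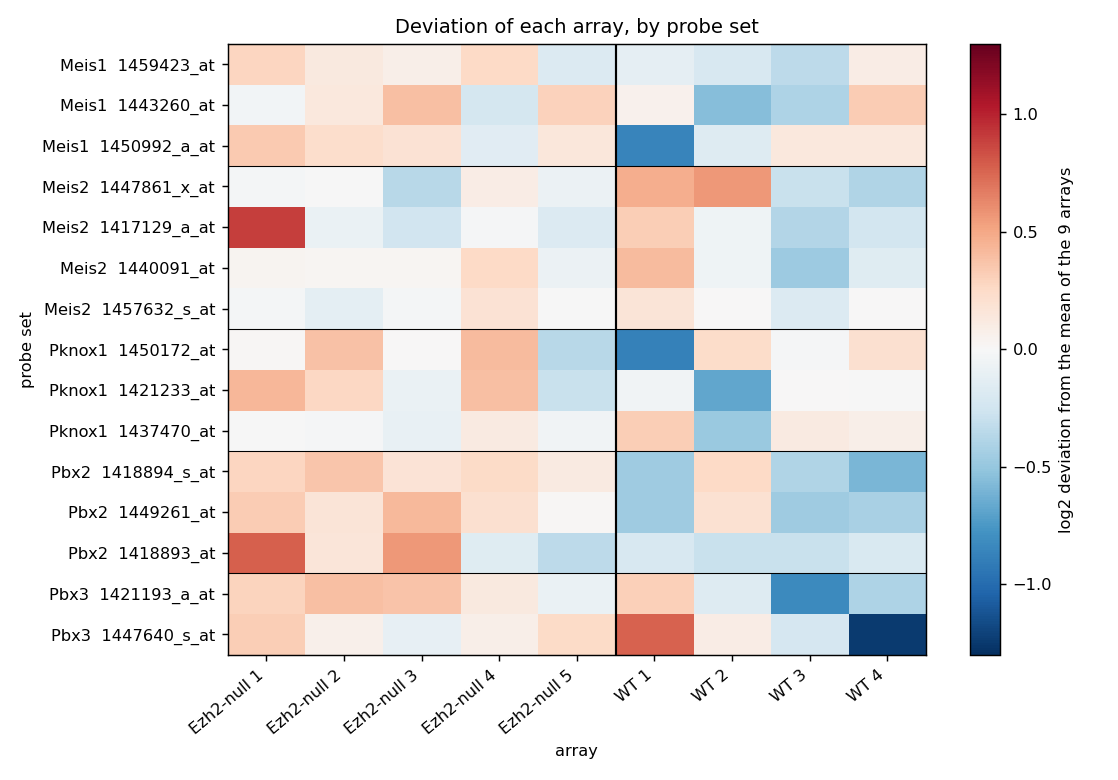
Deviation of each array from the mean of the 9 arrays on the log2 scale, for the 15 member probe sets in rows and Ezh2-null arrays left of WT arrays in columns. The 4 lowest deviations are in different WT arrays for different genes, WT replicate 1 for Pknox1 1450172_at and Meis1 1450992_a_at, WT replicate 3 for Pbx3 1421193_a_at and WT replicate 4 for Pbx3 1447640_s_at.

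Genes at or above the 40th percentile of mean log2 value were compared with each member, skipping names that were only a clone or locus number. Among the 10343 genes left, or 10344 for Meis2, those whose brightest probe set tracked each member most closely were taken. For Meis1 they were Nab1 (Pearson r 0.93 over 9 arrays), Il18bp (0.93) and Clec4a2 (0.93), and for Meis2 they were Sema6c (0.95), Ajap1 (0.95) and Kcnk12 (0.95). For Pknox1 they were Gabarap (0.96), Ccdc72 (0.94) and Dync1li2 (0.93), and for Pbx2 they were C2cd2 (0.96), Dpysl4 (0.94) and Vamp8 (0.94). Pbx3 had the closest match, with Epsti1 at 0.99, Tnrc6c at 0.98 and Peli2 at 0.97. Taken as deviations from each genotype mean, r for these 15 genes ran from 0.86 for Vamp8 to 0.98 for Epsti1, which their choice for high r over the same arrays largely fixes. No member was among the 3 closest genes of another, which for Meis2 was fixed in advance, since it lay below the 40th percentile.

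Partner and target genes were counted in the fit over all genes, where 0.498% passed at an adjusted p under 0.05 and 17.2% were under an unadjusted p of 0.05. Of the 11 other TALE genes measured and reported here, 0 passed in limma and 0 were under an unadjusted p of 0.05. The smallest p belonged to the dim genes Irx5, of the Iroquois family, with a log2 difference of 0.21, and Mkx, known from tendon, with -0.29. The close relatives Meis3, Pknox2 and Pbx4 had log2 differences of -0.14, 0.12 and 0.13 and were picked for their names, not by the naming rule. The median over these 11 genes was 0.07, against 0.02 over all genes, and -0.07 when WT replicates 3 and 4 were left out together.

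HOX proteins are the DNA-bound partners of the members. Of the 9 Hoxa genes measured and reported here 0 passed in limma, 1 was under an unadjusted p of 0.05 and 6 had a lower mean in Ezh2-null arrays. Their median log2 difference was -0.25, with Hoxa7 at -0.38 and Hoxa5 at -0.57, and the median was -0.12 when WT replicates 3 and 4 were left out together. Of 25 measured genes of the other Hox clusters 0 passed in limma, 1 was under an unadjusted p of 0.05 and the median was 0.10, with Hoxb3 at 0.30 and Hoxc8 at 0.26, both below the 40th percentile. Of those 25 genes 18 were below it, and their median was -0.02 when WT replicates 3 and 4 were left out together.

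Of 14 genes that regulate TALE proteins or work with them, 0 passed in limma and 1 was under an unadjusted p of 0.05, with a median of -0.03. The smallest p belonged to the histone deacetylase gene Hdac3 at -0.55 and the kinase gene Gsk3a at -0.37. Pbxip1, whose product binds PBX proteins and blocks their action, was at 0.22 and was named after its value was seen.

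Of 12 genes for MLL and its partners, 0 passed as higher and 1 as lower. The median log2 difference was -0.09, and 4 were under an unadjusted p of 0.05, Ash2l and 3 with higher means in Ezh2-null arrays, Aff1 at 0.34, Mllt3 at 0.40 and Mllt10 at 0.40, which encode fusion partners of MLL and were named after their values were seen. Ash2l, a subunit of the complexes that methylate histone H3 together with MLL proteins, read 1103, 916, 1017, 1087 and 1110.3 on Ezh2-null replicates 1 to 5, against 2029, 1607, 2286 and 1721 on WT replicates 1 to 4. No arrays overlapped, and the log2 difference was -0.86 (SE 0.13, adjusted p = 0.0261 in limma). It did not pass as the mean of its probe sets, at -0.47 (adjusted p = 0.109), since its other probe set stood at -0.09. Its adjusted p in limma was 0.0652 to 0.0809 when 1 of Ezh2-null replicates 1 to 4 was left out, 0.0768 when WT replicate 3 was and 0.0713 when WT replicate 4 was. It was 0.0865 when WT replicates 3 and 4 were left out together and 0.0617 with the replicate number as a block. Over all 9 ways of leaving out 1 array the log2 difference was -0.94 to -0.77.

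Of 17 genes described downstream of Meis1, or of Hoxa9 with Meis1, 0 passed in limma and 3 were under an unadjusted p of 0.05, with a median of 0.08, and -0.01 when WT replicates 3 and 4 were left out together. In that smaller fit, where 0.295% of genes passed, Ccnd1, which encodes cyclin D1, was lower in Ezh2-null arrays. Its log2 difference was -1.41 (adjusted p = 0.0496 in limma), against -0.68 with all arrays (adjusted p = 0.344 in limma). Ccnd1 read 1206 and 1204 on WT replicates 1 and 2, which stayed in that fit. WT replicates 3 and 4 read 457 and 417, within the 385 to 661 of the Ezh2-null arrays. With array weights, where 4.87% of genes passed, Cd34 and the ETS factor gene Erg passed as higher in Ezh2-null arrays, at 2.51 and 2.44. Erg was at 1.79 with all arrays and no weights, and at 0.46 without WT replicates 3 and 4. Cdk6, a kinase that drives cells through the G1 phase, read 5413, 4350.1, 5069, 3925 and 5537 on Ezh2-null replicates 1 to 5, against 6661, 6328, 7004 and 6639 on WT replicates 1 to 4, a log2 difference of -0.47 with no overlap (adjusted p = 0.12 in limma). Cd34, a surface marker of stem and progenitor cells, read 599.6, 599.6, 1251, 789 and 813 on Ezh2-null replicates 1 to 5, against 488, 478, 70.5 and 116 on WT replicates 1 to 4. The genotypes did not overlap, and its log2 difference was 1.90 with all arrays (adjusted p = 0.137 in limma) and 0.69 without WT replicates 3 and 4. WT replicates 3 and 4 were low for Cd34 as they were for Pbx3 and for neutrophil markers, and the part of those cells in its values was not tested.

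**Figure D4:**
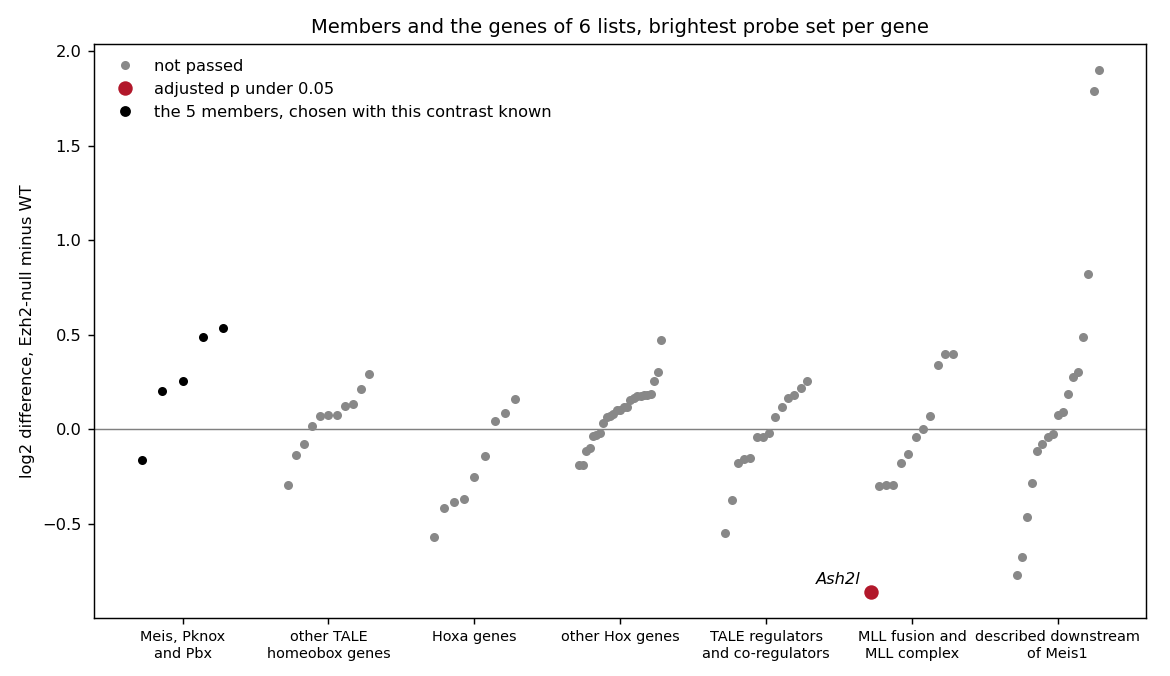
Log2 difference, Ezh2-null minus WT, of the brightest probe set per gene for the 5 members (black) and for the genes of 6 lists (grey, or red where the adjusted p was under 0.05). The members lie between -0.16 and 0.53, and Ash2l at -0.86 is the plotted list gene that passed.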

How the data were processed

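RNA of sorted cells was amplified with a whole-transcriptome kit, per the labels' protocols. The deposited values are intensities on a linear scale, summarised with RMA per the submitters' processing notes (version not given), 1 column per array. That they were turned back from log2 was read off their range. Gene symbols came from another deposited table of intensities, corrected by ComBat jointly with a different series, per the file header. In it, 7 columns of other samples were left aside, and 2 values under 1 were set to 1.

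Of 45101 probe sets, 64 were controls, 5820 had no gene and 1399 several genes. The brightest probe set, by mean log2 value, stood for a gene. Without a filter, limma 3.58.1 in R 4.3.3 (lmFit, eBayes, genotype as the single term) was fitted to log2 intensities of all 20680 genes and over all 37818 probe sets, with Benjamini-Hochberg adjustment over each. p-values were two-sided. The procedure was tested on simulated data, with independent values of equal spread on all arrays for each gene. That test did not cover the split among WT arrays or a shared origin of arrays.

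Members, lists and tests were chosen with earlier results of these data known. Named genes are the members, Ezh2, the list genes that passed or otherwise the 2 of each list with the smallest p, and the 3 genes most like each member. Kmt2a and Syk were found under older symbols, and 2 list genes are not reported here. Alternatives were the ComBat table, a filter at the 40th percentile, other probe set choices, quantile or median scaling, array weights, a variance trend, a replicate block, a threshold of 0.1 and leaving out arrays. Depth is not defined for arrays, whose number limits the precision. No pairing by replicate number was seen, as same-numbered deviations correlated at -0.14 to 0.13 and differently numbered ones at -0.13 to 0.15. So few arrays cannot exclude a pairing.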

Additional observations from a re-analysis of the deposited data

Results flagged for a closer look

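3 of 34 groups of arrays, over the members, Ezh2 and Ash2l, held an array far from the rest on the log2 scale, where chance flags about 1 in 20 groups. Ezh2-null replicate 1 read 6.45 on Meis2 1417129_a_at and the next array 5.53, a gap of 0.798 of the group's range. WT replicate 2 read 9.90 on Pbx2 1449261_at and the next array 9.28, a gap of 0.930 of the range. WT replicate 2 also read 8.97 on Pknox1 1421233_at, the lowest of its group, and the next array 9.59, a gap of 0.923.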

How the results depend on the processing

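The number of member probe sets that passed was 0 with all arrays, array weights included, and 0 to 2 with 1 array left out, the 2 being Pbx2 probe sets without WT replicate 2. In fits over genes, Pbx2 passed with array weights (adjusted p = 0.0432) and without WT replicate 2 (adjusted p = 0.0266), both in limma. The gene value, or brightest probe set, of Meis1, Pbx2 and Pbx3 kept its sign in every alternative run, which the dimmer Pbx3 probe set did not. Meis2 moved beyond 1 SD of its arrays in 1 alternative, to -0.589 without WT replicates 3 and 4. Over all genes 103 passed, 192 in the ComBat table (88 higher and 104 lower, against 60 and 43), 162 with every probe set on its own, 1007 with array weights (397 higher and 610 lower), 61 without WT replicates 3 and 4, 488 at an adjusted p under 0.1 and 17 to 330 with 1 array left out. Of the 88 list genes reported 1 passed, Ash2l, against 0 with the mean of probe sets, 4 with array weights (Ash2l, Mllt3, Cd34 and Erg), 1 without WT replicates 3 and 4 (Ccnd1) and 0 to 1 with 1 array left out. With the replicate number as a block, a fit in which Ezh2-null replicate 5 has no partner, 135 genes passed and 0 of these list genes, with Ash2l at an adjusted p of 0.0617 in limma. The cause of these shifts was not tested. Dim probe sets, which include all 4 of Meis2, limit what can be read from that gene.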

Other observations

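Further genes of the list described downstream of Meis1 were split within WT, and are given as values chosen after they were seen. Erg, an ETS factor of blood stem cells, read 2213 to 3751 on Ezh2-null arrays, against 1550 and 2317 on the first pair of WT arrays and 220 and 412 in replicates 3 and 4. Mef2c, a transcription factor linked to MLL leukaemia, read 4579 to 5718 on Ezh2-null arrays, against 5102 and 5259 on the first pair of WT arrays and 1272 and 2113 in replicates 3 and 4. Flt3, a receptor of early myeloid cells, was high on Ezh2-null replicate 5 (1711.0) and at 170 to 363 on the other Ezh2-null arrays, against 2073 and 1416 on the first pair of WT arrays and 139 and 99.7 in replicates 3 and 4. With all arrays and no weights none of them passed in limma, with adjusted p of 0.180 for Erg, 0.301 for Mef2c and 0.964 for Flt3.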
